A study of Arabidopsis thaliana with 6 samples.

Results

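A set of 35 genes of jasmonate synthesis, signalling and output was followed through the stem transcriptomes of Arabidopsis thaliana plants labelled as wild type or as mutated in γVPE, a gene for a vacuolar processing enzyme. The genes were taken by locus identifier from a table of 34484 identifiers: 4 lipoxygenases, AOS, 4 allene oxide cyclases, OPR3, DAD1, JAR1, COI1, 12 JAZ repressors, 3 MYC and 2 MYB transcription factors, the catabolic gene CYP94B3, VSP1, VSP2, ERF1 and ORA59. All 35 loci were found in the table.

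The material was mature main stem, labelled as 42 days after flowering, from greenhouse plants under a day of 16 h light and 8 h darkness at 20 °C, and no treatment is named for either set. There were 3 libraries from γVPE mutants and 3 from wild type plants; the labels give neither the mutant allele nor the number of plants in a library, and the design text states that no replicates were included. Every p-value below thus rests on variation among libraries of a set, which could be purely technical. The columns of the table are named WT_V and WT, and WT_V was taken as the mutant because it was the set left over, so both sets are called by these names.

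Jasmonates are lipid hormones that plants make after wounding and attack and during flower development, where they are needed for fertile stamens. Synthesis starts in the plastid, where lipases release linolenic acid and lipoxygenases, allene oxide synthase and allene oxide cyclases turn it into OPDA; OPDA is reduced by OPR3 and shortened by β-oxidation in the peroxisome, and JAR1 joins the product to isoleucine. The conjugate brings the receptor COI1 and a JAZ repressor together, the JAZ protein is degraded, and MYC and MYB factors are released to act on their targets, among which are the JAZ genes themselves. In leaves a MYC branch with outputs such as VSP1 and VSP2 is set against an ERF branch, driven by ERF1 and ORA59 together with ethylene, with outputs such as PDF1.2.

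The libraries differed in more than jasmonate genes. The transcript of γVPE itself (GAMMA-VPE) was at 328, 328 and 325 FPKM (fragments per kilobase of exon, scaled to library size) in WT_V and at 163, 164 and 163 FPKM in WT, so it was not lower in the set taken as the mutant. The 8 seed storage and oil body markers summed to between 14529 and 14760 FPKM in WT_V, and 7 of the 8 were listed at 0 in every WT library, whose highest sum was 0.0353 FPKM. The 10 flower organ markers summed to between 156 and 163 FPKM in WT_V and between 38.6 and 43.4 FPKM in WT, with none at 0 in either set. The 6 anther markers summed to 3.93 to 4.85 FPKM against 0.487 to 0.513 FPKM, with 3 of them listed at 0 in WT. They did not move as a group. The WT_V sum came mainly from A9 and ATA7, with means of 1.63 and 2.21 FPKM. AMS, which made up most of the WT sum, was lower in WT_V, at a mean of 0.349 against 0.471 FPKM. The 10 xylem and phloem markers of stem were present in every library, at 226 to 228 FPKM in WT_V and 91.5 to 94.6 FPKM in WT. In such bulk RNA, fewer cells of a type and less RNA per cell cannot be told apart, and for every gene below altered organ content of the sample and altered expression in stem tissue cannot be told apart. The scaling totals read from the steps of the values were 40308000 to 51013000 per library.

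Of the 35 jasmonate genes, 30 averaged at least 1 FPKM and were tested, and 5 (DAD1, JAZ4, MYC2, MYB21 and MYB24) lay below that level. In limma fits to log2(FPKM + 1), with Benjamini-Hochberg adjustment over all 19144 genes tested at 0.05, 21 of the 30 were called higher in WT_V, 6 lower, and 3 (COI1, MYC3 and VSP2) did not pass. Among all tested genes 76.0% were called, 51.9% higher and 24.1% lower, so most genes of the table differ between these sets and a call alone does not set a jasmonate gene apart. The libraries of the 2 sets did not overlap for 28 of the 30, against 77.6% of all tested genes. The median log2 difference was 0.36 over the 30 genes and 0.17 over all tested genes. With median-of-ratios scaling 16 of the 30 were called higher and 10 lower (all genes 6850 and 7213), and with quantile normalization 17 and 7 (all genes 5778 and 8439). Those scalings put the median over all tested genes at -0.012 and -0.083. The direction of small differences thus depended on the scaling, and that of larger ones could too, as CYP94B3 went from 0.51 to -0.18 with quantile normalization. Called differences of 2-fold or more in mean FPKM were found in 8 genes higher in WT_V (LOX4, AOC3, JAZ1, JAZ5, JAZ7, JAZ8, JAZ10 and VSP1; 14.4% of all tested genes) and in 2 genes lower (AOC1 and ORA59; 1.73% of all tested genes).

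**Figure D1:**
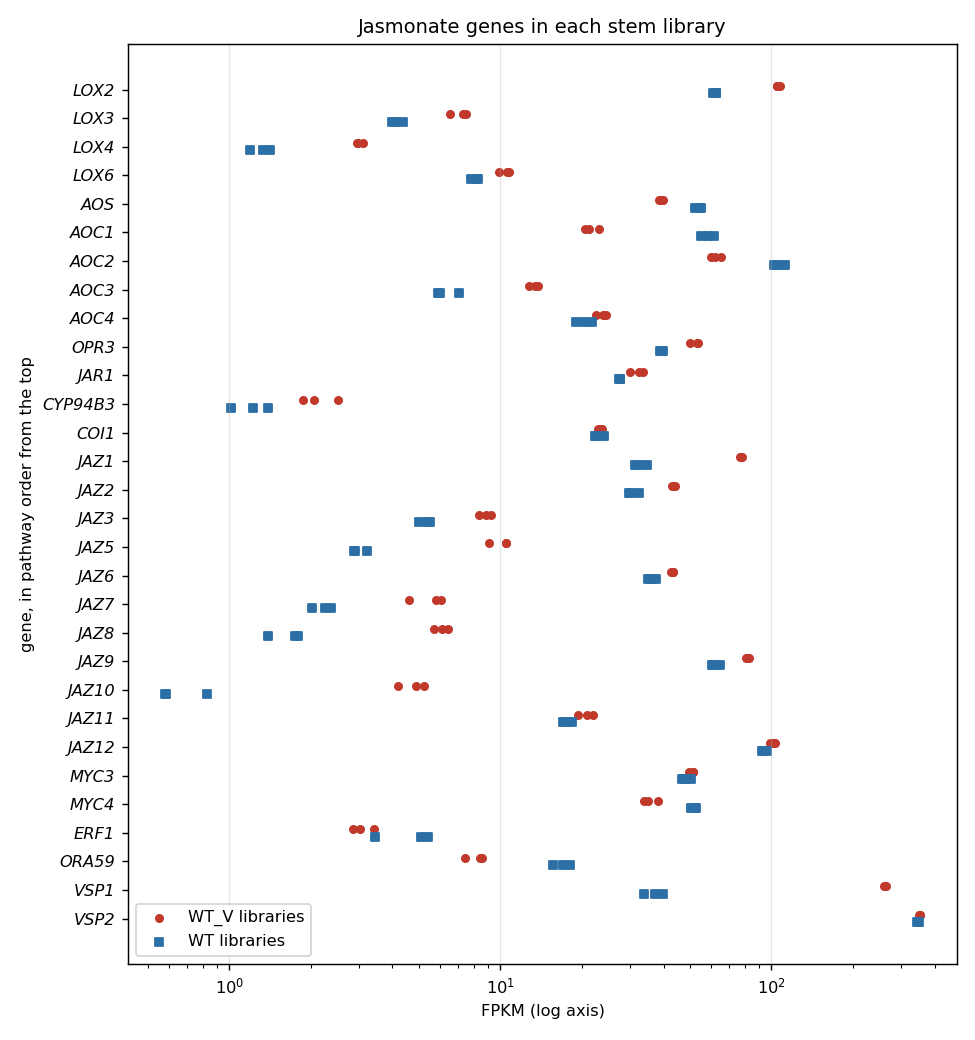
Level of each of the 30 tested jasmonate genes in FPKM on a log axis, with red points for the 3 WT_V libraries and blue squares for the 3 WT libraries, in pathway order from the top. The libraries of a set lie close together; VSP1 and JAZ10 show wide gaps with WT_V on the right, AOC1, AOC2 and ORA59 lie to the left in WT_V, and COI1 and MYC3 overlap.

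Lipid release and oxidation came first in the pathway. LOX2 (AT3G45140), the most abundant plastid lipoxygenase gene of the set, stood at 105, 108 and 105 FPKM in WT_V and at 62.4, 61.0 and 62.4 FPKM in WT. The sets did not overlap, and the log2 difference was 0.76 ± 0.02 (SE, n = 3 per set; limma adjusted p = 4.2e-10). LOX3 (AT1G17420) and LOX4 (AT1G72520), which act together in wounded leaves and in stamen development, measured 7.11 ± 0.510 against 4.16 ± 0.199 FPKM and 3.03 ± 0.0737 against 1.31 ± 0.112 FPKM (SD, n = 3). LOX6 (AT1G67560), known for the early jasmonate response in roots and xylem, was the least changed at 10.4 ± 0.478 against 8.09 ± 0.256 FPKM. All 4 were called higher, with log2 differences from 0.33 to 0.80. LOX2 made up 83.8% of the summed lipoxygenase FPKM in WT_V and 82.0% in WT, while LOX6 went from 10.7% in WT to 8.22% in WT_V and LOX4 from 1.74% to 2.40%. The sum was 1.67 times the WT level. With quantile normalization LOX4 and LOX6 did not pass, at log2 differences of 0.13 and 0.0011, and LOX3 came to 0.18.

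DAD1 (AT2G44810), the lipase gene known for releasing linolenic acid in stamen filaments, was barely detected. It stood at 0.0837, 0.0116 and 0.0124 FPKM in WT_V, and all 3 WT libraries list it at 0, so it was not tested and no fold is given.

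The next enzymes moved the other way. AOS (AT5G42650), the single gene for allene oxide synthase, stood at 39.7, 38.3 and 38.8 FPKM in WT_V and at 54.6, 52.1 and 54.7 FPKM in WT. Each WT_V library was below each WT library, with a log2 difference of -0.46 ± 0.03 (SE; limma adjusted p = 2.77e-07). It ranked at percentile 8.41 of all tested genes ordered by log2 difference.

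The 4 allene oxide cyclase genes did not move together. AOC1 (AT3G25760) stood at 23.2, 21.2 and 20.6 FPKM in WT_V and at 58.1, 55.2 and 61.6 FPKM in WT, the lowest log2 difference among the 30 tested jasmonate genes (-1.39 ± 0.05, SE; limma adjusted p = 1.37e-09) and at percentile 0.303 of all tested genes. AOC2 (AT3G25770) stood at 59.95, 65.2 and 61.8 FPKM in WT_V and at 105, 103 and 112 FPKM in WT, with a log2 difference of -0.77 ± 0.04 (limma adjusted p = 2.3e-08). AOC3 (AT3G25780) rose, from 5.99, 5.90 and 7.05 FPKM in WT to 12.7, 13.7 and 13.5 FPKM in WT_V (log2 difference 0.97 ± 0.07; limma adjusted p = 3.58e-07). AOC4 (AT1G13280) measured 23.7 ± 1.07 against 20.4 ± 1.39 FPKM (SD, n = 3) and was called higher, but it did not pass with either alternative scaling. None of these genes overlapped between the sets.

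The summed allene oxide cyclase transcript was 121 ± 3.38 FPKM in WT_V and 192 ± 7.53 FPKM in WT, or 0.631 times the WT level. Within that sum AOC1 went from 30.4% in WT to 17.9% in WT_V, AOC3 from 3.29% to 11.0% and AOC4 from 10.7% to 19.6%, while AOC2 remained the largest at 55.6% and 51.5%. AOC1, AOC2 and AOC3 lie next to each other on chromosome 3 in the TAIR10.1 annotation. Their coding sequences are 90.3% identical between AOC1 and AOC2, 83.2% between AOC1 and AOC3 and 82.4% between AOC2 and AOC3, with identical runs of up to 73 bases between AOC1 and AOC3. How reads shared by several copies were counted is not given by any source used here, so the split among these 3 copies is uncertain. AOC4, on chromosome 1, is at most 80.2% identical to any of them.

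OPR3 (AT2G06050), the peroxisomal OPDA reductase whose loss makes plants male sterile, was higher again, at 53.3, 53.7 and 49.9 FPKM in WT_V against 39.4, 39.8 and 38.9 FPKM in WT (log2 difference 0.40 ± 0.03; limma adjusted p = 1.49e-06; 0.20 with median-of-ratios scaling). JAR1 (AT2G46370), which makes the active isoleucine conjugate, measured 32.1 ± 1.71 against 27.6 ± 0.121 FPKM; its call ended with median-of-ratios scaling (log2 difference 0.016, limma adjusted p = 0.739). CYP94B3 (AT3G48520), which oxidises the conjugate and so removes it, measured 2.16 ± 0.336 against 1.21 ± 0.190 FPKM and was called higher, with a log2 difference of 0.51 ± 0.11 that turned to -0.18 with quantile normalization.

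**Figure D2:**
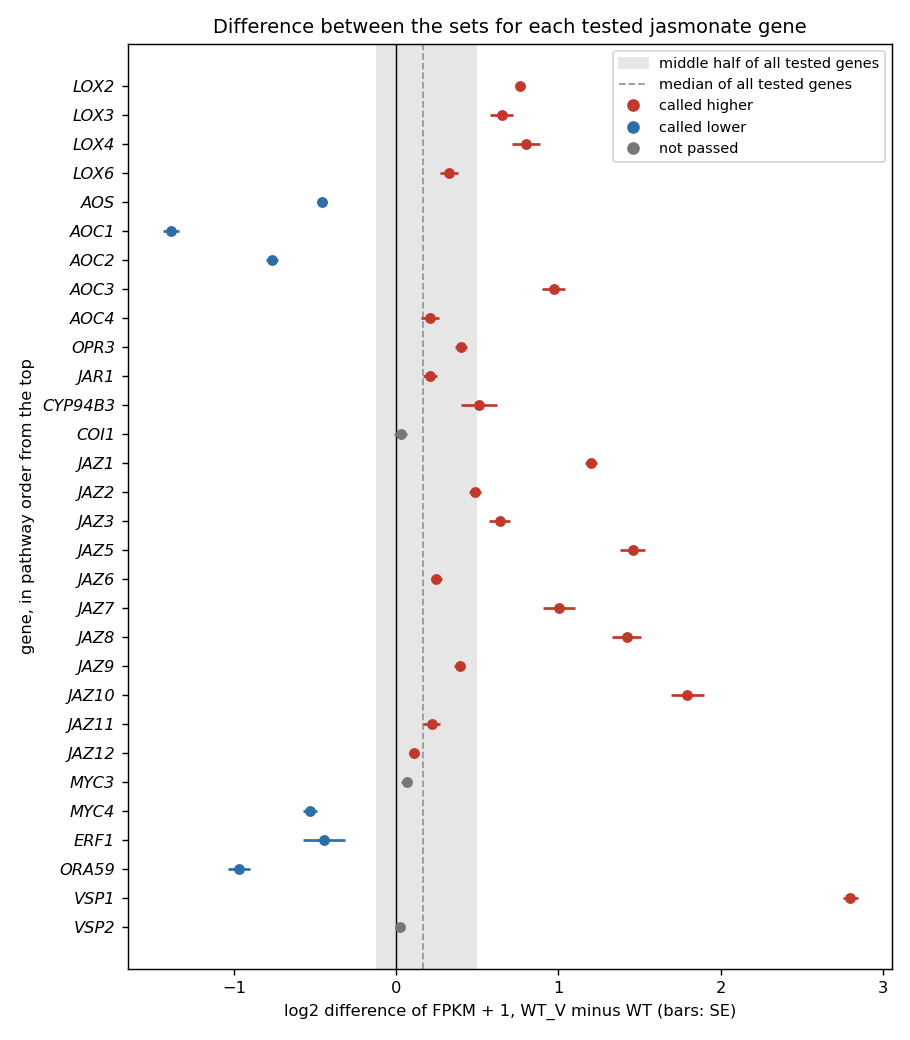
Log2 difference of FPKM + 1 (WT_V minus WT) with its standard error for the 30 tested jasmonate genes in pathway order, beside the middle range (25th to 75th percentile) and the median of all 19144 tested genes. Along the synthesis steps the signs alternate: lipoxygenases above 0, AOS, AOC1 and AOC2 below, AOC3 and OPR3 above; VSP1 lies farthest to the right at 2.80.

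COI1 (AT2G39940), the F-box receptor, did not pass. It measured 23.5, 23.0 and 23.8 FPKM in WT_V and 22.5, 24.1 and 22.3 FPKM in WT, and the sets overlapped (log2 difference 0.03 ± 0.04, SE; limma adjusted p = 0.565). Under both alternative scalings it passed as lower (-0.16 for median-of-ratios, -0.11 for quantile).

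The JAZ repressor genes were the largest family and shared a direction. All 11 tested JAZ genes were called higher in WT_V, against 51.9% of all tested genes, and 5 of them by 2-fold or more. JAZ12 (AT5G20900) was the exception under another scaling, since median-of-ratios scaling gave it a lower call (-0.091), and JAZ6 (AT1G72450) and JAZ11 (AT3G43440) did not pass there. JAZ11 did not pass with quantile normalization either (0.046, limma adjusted p = 0.457). JAZ10 (AT5G13220), whose splice forms dampen the jasmonate response, had the largest ratio, at 4.20, 4.90 and 5.25 FPKM in WT_V against 0.582, 0.585 and 0.829 FPKM in WT. The mean was 7.19 times that of WT and the log2 difference 1.80 ± 0.10 (SE; limma adjusted p = 5.61e-08), which ranged from 0.79 with a pseudocount of 5 to 2.68 with a pseudocount of 0.1. JAZ8 (AT1G30135), a repressor that lacks the usual degron and resists degradation, stood at 6.42, 5.69 and 6.10 FPKM against 1.75, 1.79 and 1.39 FPKM, or 3.69 times the WT mean.

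JAZ5 (AT1G17380) stood at 10.5, 9.10 and 10.5 FPKM in WT_V and at 3.23, 2.91 and 2.89 FPKM in WT, or 3.33 times the WT mean. JAZ7 (AT2G34600) stood at 4.61, 5.81 and 6.03 FPKM against 2.26, 2.38 and 2.02 FPKM. JAZ1 (AT1G19180), one of the abundant members, stood at 76.5, 76.9 and 77.9 FPKM against 34.8, 32.7 and 31.4 FPKM (log2 difference 1.201 ± 0.04; limma adjusted p = 3.44e-10). None of these 5 genes overlapped between the sets. JAZ4 (AT1G48500), below the level for testing, stood at 1.51, 1.78 and 0.790 FPKM in WT_V and at 0.199, 0.360 and 0.277 FPKM in WT.

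The other 6 tested members differed by less than 2-fold. JAZ12 stood at 103, 101 and 98.8 FPKM against 92.0, 96.4 and 92.8 FPKM, JAZ9 (AT1G70700) measured 81.5 ± 1.21 against 62.0 ± 2.44 FPKM, and JAZ6 43.1 ± 0.361 against 36.2 ± 1.202 FPKM (SD, n = 3). JAZ2 (AT1G74950) measured 43.5 ± 0.393 against 30.8 ± 1.40 FPKM, JAZ11 20.7 ± 1.27 against 17.7 ± 0.727 FPKM, and JAZ3 (AT3G17860) 8.83 ± 0.451 against 5.31 ± 0.254 FPKM. The JAZ sum over all 12 genes was 404 ± 0.616 FPKM in WT_V and 286 ± 1.15 FPKM in WT, a ratio of 1.41. JAZ1 went from 11.5% of the sum in WT to 19.1% in WT_V and JAZ12 from 32.7% to 25.0%, while JAZ2 held 10.7% and 10.8%. JAZ5, JAZ7, JAZ8 and JAZ10 together with JAZ4 remained minor members, each with a mean share of at most 2.49% of the sum in either set. With quantile normalization the log2 differences of JAZ3 and JAZ7 were 0.23 and 0.43, still called higher, and a pseudocount of 5 made the differences of low genes smaller (0.54 for JAZ7, 0.35 for LOX4).

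**Figure D3:**
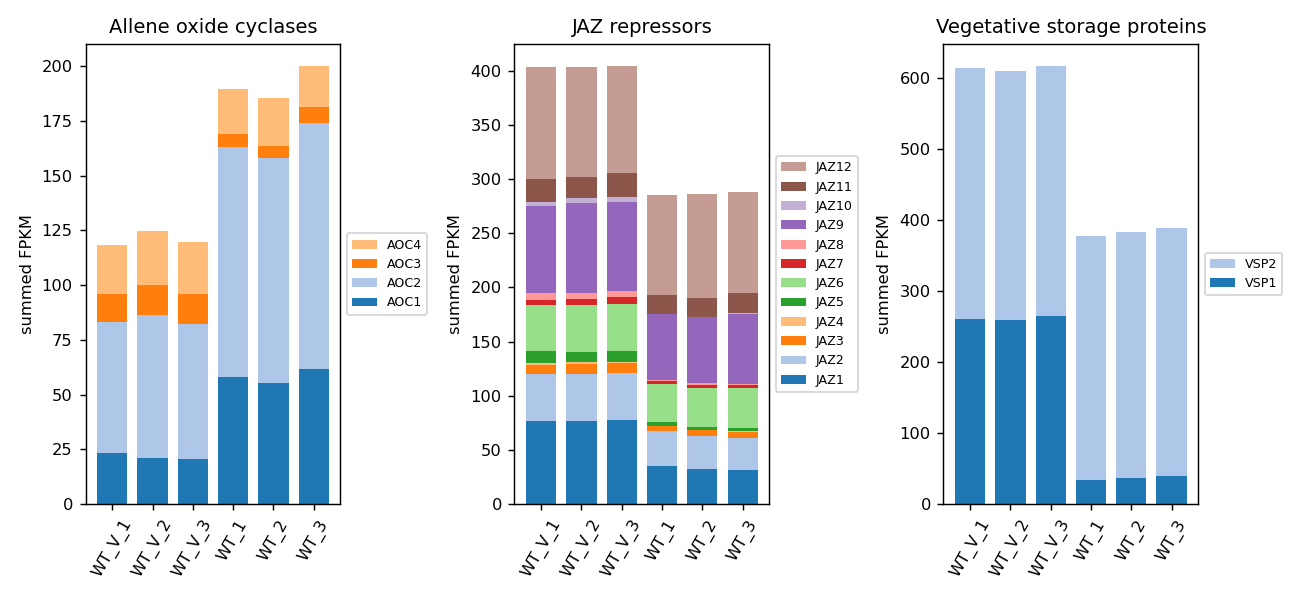
Summed FPKM of the allene oxide cyclase, JAZ and vegetative storage protein genes in each library, stacked by gene on axes that start at 0. The cyclase stack is lower in the 3 WT_V libraries, the JAZ stack is higher, at a mean of 404 against 286 FPKM, with the widest added bands in JAZ1 and JAZ9, and the VSP stack is higher in WT_V through VSP1.

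The sequences before some of these genes are shown because MYC factors bind the G-box CACGTG and related hexamers. Whether such motifs bear on the direction of the JAZ genes was not tested. The 250 bases before each gene start in RefSeq's TAIR10.1 annotation were searched on both strands for the G-box (CACGTG), the T/G-box (AACGTG) and the GCC box (GCCGCC) bound by ERF factors; a given hexamer can match only 1 of the 3 motifs. A G-box was present in 6 of the 35 genes (17.1%) and in 4 of the 12 JAZ genes (33.3%), against 6.49% of 27438 nuclear protein coding genes. The 6 were JAZ2, JAZ3, JAZ7 and JAZ8, called higher in WT_V, and AOS and ORA59, called lower. A T/G-box was present in 9 of the 35 genes (25.7%) and in 4 of the 12 JAZ genes, against 7.54% of all. A match describes these letters in this window, not a bound site. No source used here names the authors' build, and their table holds no coordinates, so the positions belong to TAIR10.1 alone. The windows are written 5′ to 3′ on the strand of the gene, with motif matches in capitals. JAZ7 (chr2:14572780-14573029, plus strand) has a G-box starting at -34 from the gene start, JAZ8 (chr1:10596102-10596351, plus strand) a G-box at -10, and JAZ10 (chr5:4218536-4218785, plus strand), the JAZ gene with the largest ratio, has none of the 3 motifs in this window; 71 of its 2215 exon bases are shared with AT5G02045 on the other strand, a locus listed at 0 in all 6 libraries.
JAZ7: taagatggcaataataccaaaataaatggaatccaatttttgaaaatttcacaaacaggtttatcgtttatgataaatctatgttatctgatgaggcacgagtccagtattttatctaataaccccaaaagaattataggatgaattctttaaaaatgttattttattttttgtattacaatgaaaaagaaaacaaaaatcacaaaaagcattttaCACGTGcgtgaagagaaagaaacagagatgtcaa
JAZ8: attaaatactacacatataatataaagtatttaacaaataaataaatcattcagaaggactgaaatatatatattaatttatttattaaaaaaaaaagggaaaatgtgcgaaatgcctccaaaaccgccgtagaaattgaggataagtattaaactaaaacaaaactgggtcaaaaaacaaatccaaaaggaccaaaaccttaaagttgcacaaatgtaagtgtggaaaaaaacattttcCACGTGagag
JAZ10: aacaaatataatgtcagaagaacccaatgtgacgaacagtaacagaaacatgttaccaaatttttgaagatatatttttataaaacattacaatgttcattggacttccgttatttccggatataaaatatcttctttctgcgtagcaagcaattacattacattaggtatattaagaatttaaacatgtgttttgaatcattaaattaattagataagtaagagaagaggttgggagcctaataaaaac

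The MYC factor genes, which drive the wound branch, were not called higher. MYC4 (AT4G17880) stood at 38.0, 34.0 and 34.98 FPKM in WT_V and at 50.6, 52.3 and 52.9 FPKM in WT, with no overlap, and was called lower (log2 difference -0.53 ± 0.04, SE; limma adjusted p = 7.46e-07; percentile 6.47 of tested genes). MYC3 (AT5G46760) did not pass, at 49.7, 51.4 and 51.3 FPKM against 50.6, 48.1 and 46.9 FPKM (log2 difference 0.07 ± 0.03; limma adjusted p = 0.105). Its call depended on the setting, since it passed as higher without WT replicate 1 (0.095, limma adjusted p = 0.0265) and as lower with median-of-ratios scaling (-0.13, limma adjusted p = 0.00533).

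MYC2 (AT1G32640), the best known member, was listed at 0 in all 6 libraries, and this is not read as a level. In the TAIR10.1 annotation 98.5% of its 3289 exon bases are shared with AT1G32630 on the other strand. Of 487 protein coding genes with 95% or more of their exon bases shared with another locus, 449 (92.2%) were listed at 0 in every library, against 7.48% of the other 26957. AT1G32630 itself was at 1.06, 1.06 and 0.909 FPKM in WT_V and 0.981, 1.11 and 0.686 FPKM in WT.

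MYB21 (AT3G27810) and MYB24 (AT5G40350), petal and stamen factors that jasmonate releases from JAZ repression, were below the level for testing. MYB21 stood at 0.846, 0.777 and 0.814 FPKM in WT_V and at 0.323, 0.258 and 0.292 FPKM in WT. MYB24 stood at 0.243, 0.235 and 0.0843 FPKM in WT_V and at 0.0330, 0 and 0 FPKM in WT. The flower organ markers were higher in the same libraries, and their part in these values was not tested. In the TAIR10.1 annotation 468 of the 1005 exon bases of MYB24 are shared with AT5G40348 on the other strand. MYB21 shares 447 and 203 of its 3097 exon bases with AT3G27809 and AT3G05315, also on the other strand. Those 3 loci were listed at 0 in every library, and the part of the overlap in the MYB21 and MYB24 values was not tested.

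The ERF branch regulators were lower in WT_V. ORA59 (AT1G06160) stood at 7.44, 8.41 and 8.55 FPKM in WT_V and at 15.6, 17.0 and 18.0 FPKM in WT, with no overlap, a log2 difference of -0.97 ± 0.07 (SE; limma adjusted p = 2.88e-07) and a rank at percentile 1.21 of all tested genes. ERF1 (AT3G23240) stood at 3.43, 3.04 and 2.86 FPKM in WT_V and at 3.44, 5.10 and 5.41 FPKM in WT. Its sets were separated by a narrow gap, because WT replicate 1 lay next to the highest WT_V library, and it was called lower (-0.44 ± 0.13; limma adjusted p = 0.00959, and at most 0.0451 over the alternatives; -0.98 with quantile normalization). The window before ORA59 (chr1:1882657-1882906, plus strand) is shown because it holds both a GCC box, at -230, and a G-box, at -194; it was the single window of the 35 with a GCC box, which 1.87% of all promoters hold.
ORA59: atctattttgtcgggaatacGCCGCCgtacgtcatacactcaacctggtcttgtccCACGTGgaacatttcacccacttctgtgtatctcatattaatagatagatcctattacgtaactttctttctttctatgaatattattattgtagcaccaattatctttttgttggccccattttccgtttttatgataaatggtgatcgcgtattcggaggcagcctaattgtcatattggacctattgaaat

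VSP1 (AT5G24780) and VSP2 (AT5G24770), neighbouring genes for vegetative storage proteins with acid phosphatase activity, are standard jasmonate readouts in leaves and flowers, and they parted here. VSP1 stood at 261, 260 and 265 FPKM in WT_V and at 33.8, 37.1 and 39.7 FPKM in WT, 7.11 times the WT mean and the largest log2 difference of the 30 genes (2.80 ± 0.05, SE; limma adjusted p = 2.48e-12; percentile 97.8 of tested genes). VSP2 stood at 352, 350 and 352 FPKM in WT_V and at 344, 346 and 349 FPKM in WT. Its log2 difference was 0.02 ± 0.02 (limma adjusted p = 0.226), and it passed as lower with median-of-ratios scaling (-0.18) and as higher with quantile normalization (0.18). VSP1 was thus at 74.2%, 74.3% and 75.1% of the VSP2 level in the WT_V libraries and at 9.82%, 10.7% and 11.4% in the WT libraries, a ratio that does not depend on the scaling factor of a library. The flower organ and seed markers were higher in the same WT_V libraries, and their part in the VSP1 value was not tested.

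The coding sequences of VSP1 and VSP2 are 90.4% identical, with identical runs of up to 54 bases, so reads could be assigned to the wrong copy. The windows before both genes are shown side by side because the genes are close copies of which only VSP1 was called. Whether a motif in these windows bears on the levels was not tested. VSP1 (chr5:8509202-8509451, minus strand) holds a T/G-box on the opposite strand of the gene, written CACGTT, starting at -170; VSP2 (chr5:8502225-8502474, minus strand) holds none of the 3 motifs in this window.
VSP1: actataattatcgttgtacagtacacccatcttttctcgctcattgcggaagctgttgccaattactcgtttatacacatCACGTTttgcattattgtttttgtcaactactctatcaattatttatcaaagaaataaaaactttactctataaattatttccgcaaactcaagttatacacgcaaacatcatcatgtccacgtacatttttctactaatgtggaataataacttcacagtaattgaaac
VSP2: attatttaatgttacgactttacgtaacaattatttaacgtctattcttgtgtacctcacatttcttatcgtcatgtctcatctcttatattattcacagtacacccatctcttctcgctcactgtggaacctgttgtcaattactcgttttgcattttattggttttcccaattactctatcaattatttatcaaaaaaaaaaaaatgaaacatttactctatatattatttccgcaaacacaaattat

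Jasmonate genes outside the set were grouped in a pathway list and an output list. Of 37 other pathway genes, 33 were tested, 26 were called higher and 3 lower, and 4 did not pass, with a median log2 difference of 0.61. Of 19 other output genes, 11 were tested, 2 were called higher and 7 lower, and 2 did not pass, with a median of -0.27. The median over all tested genes was 0.17, with 51.9% higher and 24.1% lower. The roles used below to sort these genes were assigned after their values were seen.

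All 7 genes of peroxisomal import and β-oxidation were called higher. ACX5, an acyl-CoA oxidase, measured 20.1 ± 0.875 FPKM in WT_V against 6.96 ± 0.811 in WT, OPCL1, the ligase that activates the reduced OPDA product, 21.9 ± 1.298 against 10.5 ± 0.7496 FPKM, and the thiolase KAT2 170 ± 2.67 against 111 ± 2.32 FPKM (SD, n = 3). These enzymes also serve fatty acid breakdown in seedlings and seeds. The 8 seed markers were higher in the same libraries, and their part was not tested.

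Genes that convert or inactivate jasmonate included JOX1, which had the largest log2 difference at a pseudocount of 1 among the tested genes of both lists; JMT had the larger ratio of means (79.9 against 35.2). Of 10 such genes 9 were tested, 7 were called higher, 1 lower, and 1 did not pass. JOX1, an oxygenase that hydroxylates jasmonic acid, stood at 6.10, 5.73 and 6.70 FPKM in WT_V and at 0.120, 0.259 and 0.147 FPKM in WT, with a log2 difference of 2.61 ± 0.10 (SE; limma adjusted p = 1.28e-09) that ranged from 1.11 to 4.54 over the alternatives. JMT, which makes the volatile methyl ester, stood at 4.02, 3.63 and 3.63 FPKM against 0.0746, 0.0518 and 0.0147 FPKM (2.18 ± 0.09; limma adjusted p = 5.15e-09; 0.80 to 4.73 over the alternatives). JOX2 and JOX3 were at 2.22 and 3.63 times the WT mean, the sulfotransferase gene ST2A at 14.7 times and CYP94C1 at 4.22 times. The ratios of JMT, JOX1 and ST2A rest on low WT means, of 0.0470, 0.175 and 0.270 FPKM. JMT had 5, 4 and 1 counts in the WT libraries, and ST2A had 28, 11 and 21. CYP94B1, a close relative of CYP94B3, was the gene of this role called lower, at 1.66 ± 0.112 against 2.52 ± 0.337 FPKM.

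Of 9 genes of fatty acid supply and other oxylipin branches, 8 were tested, 6 were called higher and 2 lower. LOX5, a lipoxygenase that does not feed jasmonate, stood at 11.6, 12.4 and 11.7 FPKM in WT_V against 1.36, 1.004 and 1.34 FPKM in WT, or 9.65 times the WT mean. HPL1, for hydroperoxide lyase, an enzyme that competes with AOS for its substrate, measured 45.0 ± 1.17 against 8.92 ± 0.592 FPKM. OPR2, a relative of OPR3, measured 21.8 ± 0.464 against 4.54 ± 0.216 FPKM. FAD3, a gene for a desaturase that makes linolenic acid in the endoplasmic reticulum, is well known from seed oil. It measured 71.7 ± 1.197 against 26.4 ± 2.04 FPKM.

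Output genes of the ERF branch that were called had the direction of ORA59. The 8 genes were sorted here after their values were seen, and 5 were tested. Of these, 4 were called lower, against 24.1% of all tested genes, none higher, and 1 did not pass. PDF1.2a, a defensin gene, stood at 1.02, 1.90 and 0.984 FPKM in WT_V against 2.74, 2.90 and 4.002 FPKM in WT (log2 difference -0.89 ± 0.16, SE; limma adjusted p = 0.000463; -1.46 with quantile normalization). The hevein-like gene PR4 measured 92.9 ± 1.08 against 147 ± 2.23 FPKM, the thionin gene THI2.1 40.1 ± 1.81 against 56.2 ± 1.86 FPKM, and the regulator ERF2 48.0 ± 0.312 against 68.9 ± 3.48 FPKM (SD, n = 3). The PDF1.2 genes are close copies of each other, and their single values are uncertain.

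Outside the set, outputs of the MYC branch and of wounding were mostly lower where called. Within the set, VSP1 of this branch was called higher, at a log2 difference of 2.80, and VSP2 did not pass. CORI3, an aminotransferase-like gene induced by jasmonate and its mimic coronatine, was lower at 48.9 ± 1.69 against 76.4 ± 1.04 FPKM. ANAC019, a transcription factor gene downstream of MYC factors, was higher at 102 ± 2.098 against 67.0 ± 3.62 FPKM. ANAC055, a related gene sorted here too, was called lower, at 19.7 ± 0.885 against 23.9 ± 1.52 FPKM. Of the 7 genes sorted here 5 were tested, 1 was called higher, 3 lower, and 1 did not pass. Of 9 signalling partners of the COI1 and JAZ proteins 7 were tested, 5 were called higher and 2 did not pass, and of 2 transporter genes 1 was called higher. Of 4 stamen and flower outputs 1 was tested, and it was called higher.

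**Figure D4:**
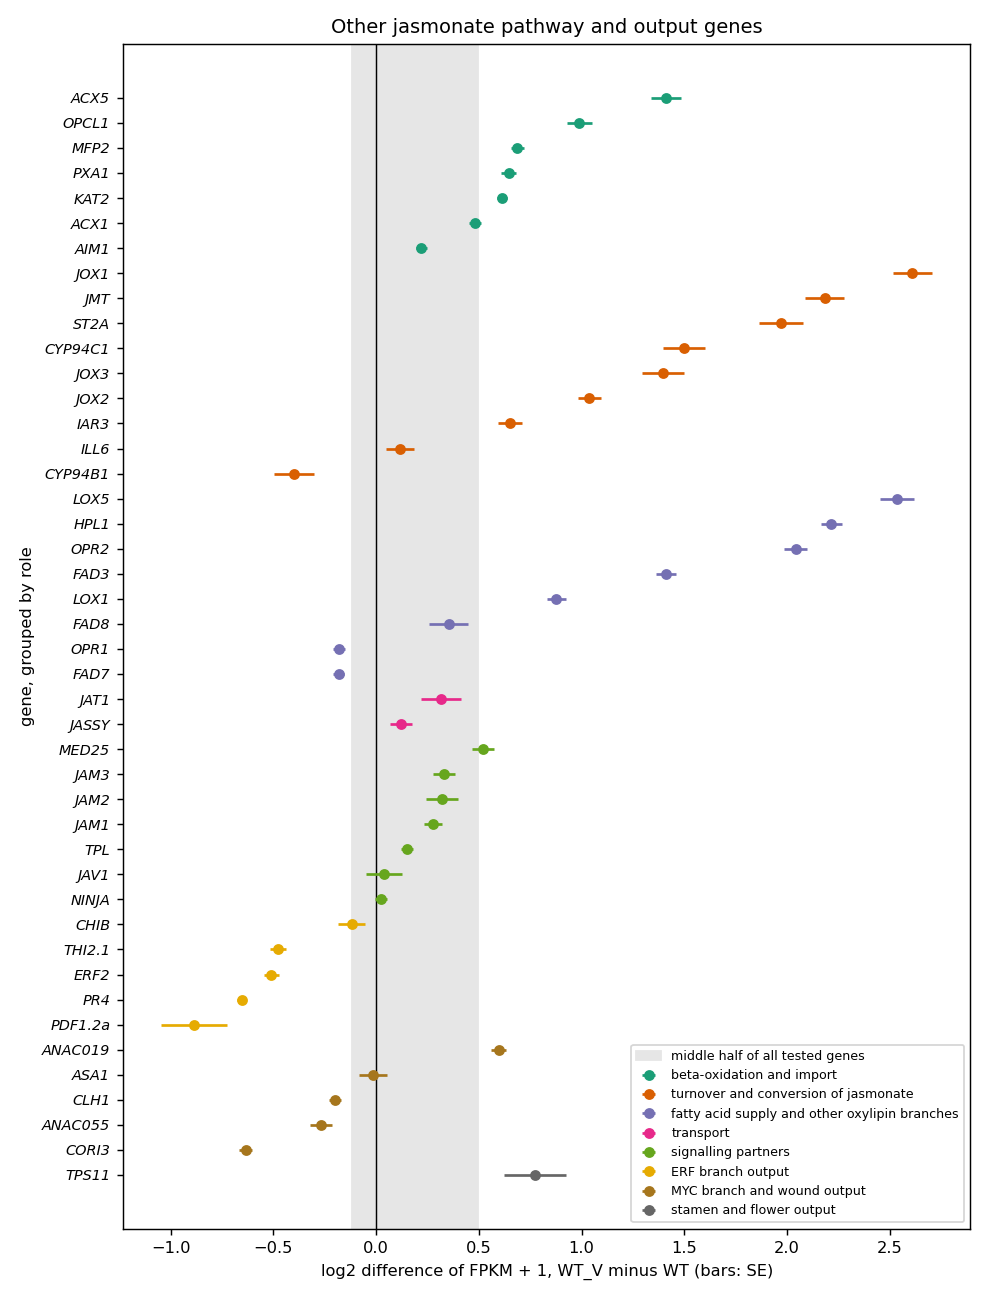
Log2 difference of FPKM + 1 (WT_V minus WT) with its standard error for the 44 tested genes of the other pathway and output lists, coloured by role, beside the 25th to 75th percentile range of all tested genes. Most import and conversion genes lie to the right, with JOX1 at 2.61, and the ERF branch outputs lie to the left, down to -0.89 for PDF1.2a.

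Across the whole set, 19 of the 30 tested genes kept their direction and call in each alternative that gave them a value. They were the 13 higher genes LOX2, LOX3, AOC3, OPR3, JAZ1, JAZ2, JAZ3, JAZ5, JAZ7, JAZ8, JAZ9, JAZ10 and VSP1, and the 6 lower genes AOS, AOC1, AOC2, MYC4, ERF1 and ORA59. For the other 11, median-of-ratios scaling or quantile normalization changed the call or the sign.

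**Figure D5:**
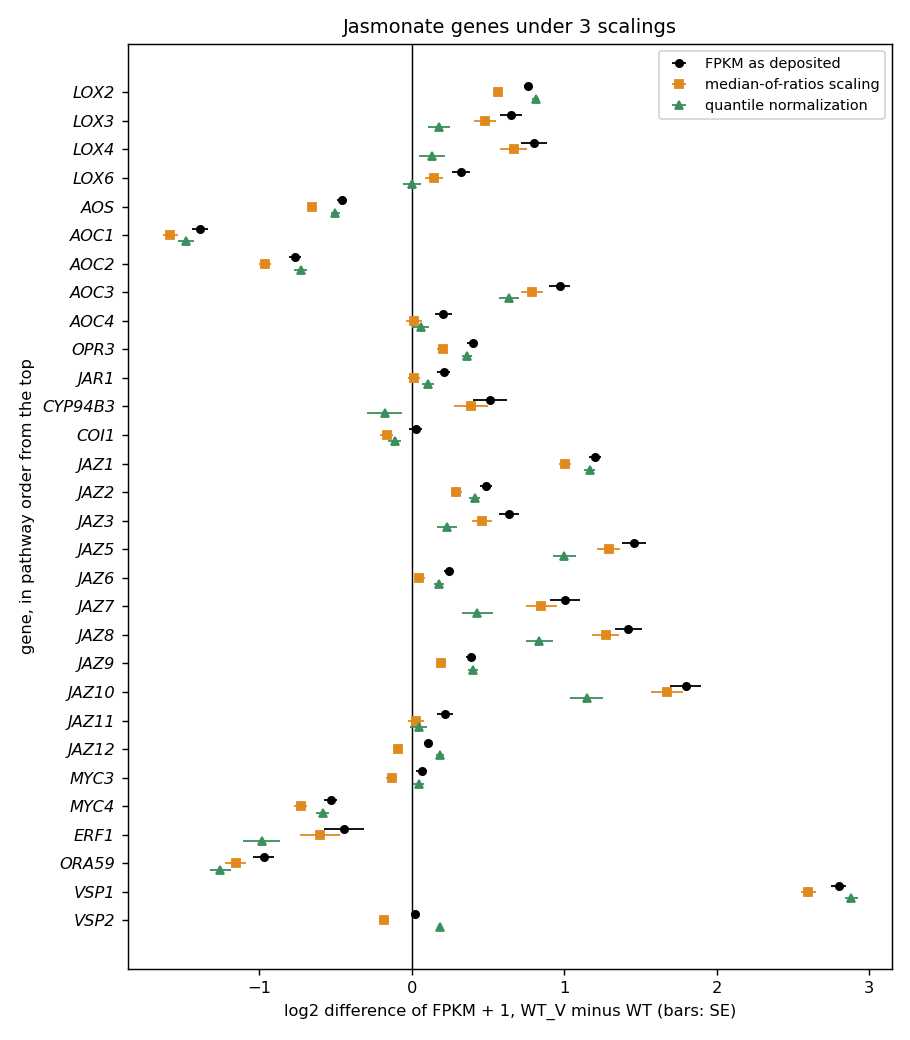
Log2 difference of FPKM + 1 with its standard error for the 30 tested jasmonate genes under the deposited scaling, median-of-ratios scaling and quantile normalization. Genes such as VSP1, JAZ10 and AOC1 lie far from 0 under all 3, while COI1, MYC3, VSP2, JAZ12 and CYP94B3 cross 0.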

How the data were processed

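The authors deposited 1 table of FPKM values (fragments per kilobase, scaled to a library total) with 34484 identifiers and 6 columns. Per the submitters' processing notes, Bowtie2 2.2.3, TopHat2 2.0.12 and HTSeq 0.6.1 were used; their genome build, annotation, strand setting and handling of shared reads are not given in any source used. Multiplied by TAIR10.1 exon length, the FPKM values of single-transcript genes with low counts were whole multiples of 1 step within 0.02 for 99.0 to 99.3% of genes, which gave the scaling totals. In a gene of 1 kb each count equalled 0.0196 to 0.0248 FPKM, depending on the library.

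For genes averaging at least 1 FPKM, WT_V minus WT was fitted to log2(FPKM + 1) by limma 3.58.1 (R 4.3.3), letting the prior variance follow mean intensity, with Benjamini-Hochberg adjustment at 0.05 over 19144 genes; differences of low genes are understated on this scale. Ratios are ratios of mean FPKM. The genes and lists were chosen with earlier results of these data known. Named jasmonate genes outside the set were, in each direction, the 5 called and non-overlapping genes of the other lists with the largest differences. CYP94C1, ST2A, JOX2, JOX3, ACX5, OPCL1, FAD3, KAT2, CYP94B1, ANAC019 and ANAC055 were added after their values were seen. Alternatives were pseudocounts of 0.1 and 5, no filter, a minimum mean of 5 FPKM, 2 scalings, no trend, a replicate block and leaving out each library. Sequences come from RefSeq (TAIR10.1), read with Biopython 1.88, and figures from matplotlib 3.10.9.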

Additional observations from a re-analysis of the deposited data

How the results depend on the processing

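Pseudocounts of 0.1 and 5, no filter, a minimum mean of 5 FPKM, no trend and the replicate block left the direction and call of each tested jasmonate gene as reported, for the genes that had a value. Scaling changed more. With median-of-ratios scaling 7213 genes of the table and 10 jasmonate genes were called lower, and COI1 (-0.16), MYC3 (-0.13), VSP2 (-0.18) and JAZ12 (-0.091) changed sign on the log2 scale. With quantile normalization 5778 genes were called higher and 8439 lower, 16 other jasmonate genes were called lower, and COI1 (-0.11) and CYP94B3 (-0.18) changed sign. The WT_V to WT ratios of summed FPKM went from 1.67 to 1.46 and 1.62 for lipoxygenases, from 1.41 to 1.23 and 1.36 for JAZ, from 0.860 to 0.749 and 0.841 for MYC3 plus MYC4, from 0.522 to 0.455 and 0.394 for ERF1 plus ORA59, and from 1.60 to 1.39 and 1.80 for VSP (median-of-ratios, then quantile). That of the allene oxide cyclases went from 0.631 to 0.549 with median-of-ratios scaling. The cause was not tested.

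Leaving out each library in turn gave ratios of 1.66 to 1.68 for lipoxygenases, 0.621 to 0.645 for cyclases, 1.41 (lowest and highest) for JAZ, 0.854 to 0.866 for MYC3 plus MYC4, 0.494 to 0.546 for ERF1 plus ORA59 and 1.59 to 1.61 for VSP. It gave 9445 to 9711 genes called higher and 4298 to 4443 lower, 21 to 22 jasmonate genes higher and 6 lower, and 28 to 29 other jasmonate genes higher and 10 to 11 lower. Same-numbered libraries did not deviate together (r = -0.0157, -0.0156 and 0.0141). No pairing by number was thus visible, though this check cannot show that none was made. With the replicate block 9868 genes were called higher and 4609 lower, and 21 and 6 jasmonate genes. Few reads stood behind DAD1 (7, 1 and 1 reads in WT_V) and MYB24 (9, 9 and 3 reads in WT_V). For MYB24 depth and the 46.6% of its exon bases shared with another locus were not told apart. MYB21 and JAZ4 had more counts, about 119 to 129 and 70.8 to 172 in WT_V, but also lay below the level for testing. With no filter 24 jasmonate genes were called higher and 6 lower. Over all genes that setting gave 12379 called higher and 4596 lower, against 9931 and 4619 with the filter.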
